A study of Mus musculus with 5 samples.

Results

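Numbered Zfp genes encode proteins with zinc fingers, short folds held by a zinc ion that usually read DNA and sometimes RNA or other proteins. The genes examined here are those whose symbol is Zfp followed by 3 digits, with or without a letter, and whose counts summed over all 5 libraries reached at least 500. They numbered 237 of the 29495 genes in the deposited tables, and 334 genes carried such a name at any count. The members were chosen by symbol and by their summed counts, so the summed counts are a description. Just inside the limit lay Zfp438 with 511 counts and Zfp870 with 516, and just outside it Zfp119b with 498 and Zfp566 with 497.

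The libraries were made from mouse glioma cells of the genotype p53-/-;NF1-/-;tdTomato+/-, derived from a mouse tumor model whose strain background mixes CD-1 with C57BL/6. They shared dishes with neurons of the olfactory bulb (OB), taken from C57BL/6 pups at postnatal day 2 to 3, and were then sorted on the red fluorescent protein tdTomato. The comparison was between 2 control libraries of such co-cultured cells (replicates 1 and 2) and 3 libraries from co-cultures given IGF-1, insulin-like growth factor 1, at 20 ng/mL overnight (replicates 3, 4 and 5). Every group therefore lacked p53 and NF1, had been in contact with neurons and had grown in media holding serum or B27, and the plating medium held insulin. Separate cultures or tumors for the libraries are not named in the labels, so the p-values below speak only to the spread among the 5 libraries at hand, part of which can be technical. In bulk libraries, fewer cells of a type and less RNA per cell cannot be told apart.

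Many zinc finger proteins of this kind also carry a KRAB box, a short segment that recruits the co-repressor TRIM28. TRIM28 in turn brings the histone methyltransferase SETDB1 and HP1 proteins, which pack the bound DNA into heterochromatin. KRAB zinc finger proteins are known for silencing retroelements and for guarding imprinted loci, and their genes often lie side by side in clusters of duplicated copies. Members without a KRAB box are a mixed group that includes activators, parts of chromatin complexes, RNA-binding proteins and ribosome factors.

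The depth of the libraries ranged from 16944315 to 20144181 counts. IGF-1 replicate 5 scored 33.6 on the leading principal component (35.2% of variance), where the others scored -18.8 to 1.40. On the next component (26.4%) it scored 13.4, near the controls (11.6 and 14.2), with IGF-1 replicates 3 and 4 at -18.2 and -21.0. Chi-square per degree of freedom was 2.29 between the controls, 2.33 between replicates 3 and 4, and 13.4 and 13.5 between these and replicate 5. Leaving replicate 5 out lowered the biological coefficient of variation from 0.0774 to 0.0324, so counts of calls are given with and without it. The 6 glioma markers of the oligodendrocyte progenitor kind summed to 3572 to 3696 CPM (counts scaled to library size) in the controls and 3752 to 4231 CPM with IGF-1. The 8 neuron markers summed to 8.59 to 8.66 CPM and 9.08 to 15.5 CPM in the same order, and 6 of them were under 1 CPM. All 5 microglia markers and all 4 endothelial markers were under 1 CPM. The 4 astrocyte markers summed to 88.2 to 93.1 CPM in the controls and 82.0 to 106 CPM with IGF-1. Of these, 2 were under 1 CPM, and Slc1a2 held most of the sum at a mean of 80.5 CPM. Markers that astrocytes share with glioma were counted but name no cell type.

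All 237 members passed the filter on low counts. With all 5 libraries, 3 members rose and 4 fell at an adjusted p below 0.05 (edgeR's quasi-likelihood test, Benjamini-Hochberg over 15919 genes). The rise was called in 1.27% of the members beside 0.685% of all genes, and the fall in 1.69% beside 0.339%. The members that rose were Zfp703, Zfp131 and Zfp142, and those that fell were Zfp799, Zfp608, Zfp874b and Zfp677. Without IGF-1 replicate 5, 13 members (5.49%) rose and 26 (11.0%) fell, where 5.49% and 3.65% of 15573 genes did. All 7 members called with every library were among those 39. DESeq2 without replicate 5 called far fewer members, 4 higher (1.69%) and 6 lower (2.53%), where 2.91% of 10877 genes rose and 1.34% fell. These were the same 7 with Zfp276, Zfp113 and Zfp229.

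Start-site windows were available for 5 of the 7 called members, and their sequences are shown because these windows differ widely in how many CpG dinucleotides they hold. Each window runs from 250 bases before to 50 bases after the transcription start, on the gene's own strand, in RefSeq's GRCm38.p6, a build other than that of the counts. Zfp799 lies at chr17:32830212-32830511 (minus strand), Zfp677 at chr17:21383498-21383797 (plus strand) and Zfp874b at chr13:67484204-67484503 (minus strand). Zfp131 lies at chr13:119790683-119790982 and Zfp142 at chr1:74587979-74588278, both on the minus strand. Capitals mark CG in all but the Zfp874b window, where they mark the cyclic AMP response element TGACGTCA and the forkhead motif GTAAACA.
Zfp799: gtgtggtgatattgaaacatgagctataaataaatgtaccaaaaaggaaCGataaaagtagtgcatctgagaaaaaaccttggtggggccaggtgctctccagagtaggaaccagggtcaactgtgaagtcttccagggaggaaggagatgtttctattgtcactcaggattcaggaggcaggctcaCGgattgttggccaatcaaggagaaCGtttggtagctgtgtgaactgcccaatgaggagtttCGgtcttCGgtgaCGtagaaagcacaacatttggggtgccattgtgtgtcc
Zfp677: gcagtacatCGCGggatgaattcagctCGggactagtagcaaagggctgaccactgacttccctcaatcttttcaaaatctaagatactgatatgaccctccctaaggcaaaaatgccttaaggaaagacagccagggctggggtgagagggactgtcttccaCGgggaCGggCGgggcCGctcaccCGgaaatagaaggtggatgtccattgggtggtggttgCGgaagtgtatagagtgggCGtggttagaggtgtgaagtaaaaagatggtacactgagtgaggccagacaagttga
Zfp874b: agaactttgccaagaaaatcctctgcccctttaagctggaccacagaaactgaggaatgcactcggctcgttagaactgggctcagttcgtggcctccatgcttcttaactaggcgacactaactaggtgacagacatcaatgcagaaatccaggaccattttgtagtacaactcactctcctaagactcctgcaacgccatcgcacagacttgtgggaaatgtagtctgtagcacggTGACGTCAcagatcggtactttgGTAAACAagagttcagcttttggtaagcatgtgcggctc
Zfp131: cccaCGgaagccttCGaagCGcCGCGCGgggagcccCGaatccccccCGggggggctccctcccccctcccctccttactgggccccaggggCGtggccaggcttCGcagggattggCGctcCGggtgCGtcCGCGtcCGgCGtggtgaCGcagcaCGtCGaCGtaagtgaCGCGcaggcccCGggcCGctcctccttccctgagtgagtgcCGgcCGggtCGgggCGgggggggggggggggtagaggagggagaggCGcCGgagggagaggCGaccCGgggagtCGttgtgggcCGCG
Zfp142: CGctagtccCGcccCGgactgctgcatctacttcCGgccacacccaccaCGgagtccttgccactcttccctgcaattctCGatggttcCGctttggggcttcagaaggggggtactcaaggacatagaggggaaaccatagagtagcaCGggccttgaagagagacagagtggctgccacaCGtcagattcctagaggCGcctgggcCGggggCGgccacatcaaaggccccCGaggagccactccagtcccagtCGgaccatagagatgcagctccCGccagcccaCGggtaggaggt

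The windows of the members that fell were poor in CpG, with 6 in Zfp799, 10 in Zfp677 and 10 in Zfp874b. Those of the members that rose held 16 in Zfp142 and 36 in Zfp131. The median was 16 over the 198 members with a window, against 21 over 11122 genes tested. Without IGF-1 replicate 5, the median was 10.5 (range 5 to 30) in 24 of the 26 members that fell and 22 (range 14 to 42) in 10 of the 13 that rose. Members with a KRAB sequence pattern, described below, had a median of 11 and the others of 19. The part of promoter composition in the changes was not tested.

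Only the Zfp874b and Zfp874a windows held both motifs among the 198. The forkhead motif GTAAACA, searched on both strands, lay in 4 member windows (2.02%), those of Zfp280c, Zfp688, Zfp874a and Zfp874b, against 2.44% of windows of tested genes and 3.55% of all 27025 windows. The cyclic AMP response element TGACGTCA lay in 6 (3.03%), those of Zfp335, Zfp426, Zfp266, Zfp523, Zfp874a and Zfp874b, against 3.20% and 1.88%. The core ACTACAATT, which ZNF143 is known to bind, lay in 5 member windows (2.53%), against 0.764% and 0.433%. The YY1 core AAGATGGCG lay in 6 (3.03%), against 3.08% and 1.49%. The motifs do not overlap one another in the Zfp874b window, and a match to letters describes the window only.

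Zfp703 had the largest rise. It encodes a transcriptional corepressor of the NET family, and its protein held no match to the zinc finger pattern. Its level was 97.8 and 89.0 CPM in the controls and 145, 153 and 138 CPM with IGF-1, so every IGF-1 library lay above both controls. Its mean was 93.4 ± 6.19 CPM (SD, n = 2) against 145 ± 7.54 CPM (SD, n = 3), a log2 change of 0.64 (SE 0.07) with an edgeR adjusted p of 0.00527. Without replicate 5 the log2 change was 0.67. Of its 50-base words, 11.7% also occur in transcripts of other genes, most in Gm45371, so reads there could have been split.

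Zfp131 encodes a transcription factor with a BTB domain and matched 4 zinc fingers. Its level was 77.6 and 81.0 CPM in the controls and 109, 104 and 104 CPM with IGF-1. The groups did not overlap, and the means were 79.3 ± 2.41 CPM (SD, n = 2) and 105 ± 3.06 CPM (SD, n = 3). The log2 change was 0.41 (SE 0.06, edgeR adjusted p = 0.0192). It shared no 50-base word with another gene, unlike the other members that rose.

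Zfp142 encodes a protein of 1740 residues with 33 finger matches, whose human counterpart is linked to a neurodevelopmental disorder. Its level was 41.8 and 34.5 CPM in the controls and 52.4, 51.2 and 55.7 CPM with IGF-1. The control libraries differed from each other more than the IGF-1 libraries did, and the groups did not overlap. The log2 change was 0.48 (SE 0.09) with an edgeR adjusted p of 0.0495, which was 0.0581 with total counts in place of scaling factors. Its neighbour Plcd4 shares most of the 27.0% of its words found elsewhere, so its count is uncertain.

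Zfp799 is a KRAB member with 16 finger matches and lies between Zfp811 and Zfp870. Its level was 26.0 and 25.2 CPM in the controls and 15.7, 17.0 and 15.8 CPM with IGF-1. Both groups were tight and lay well apart, at 25.6 ± 0.543 CPM (SD, n = 2) and 16.2 ± 0.718 CPM (SD, n = 3). The log2 change was -0.66 (SE 0.10, edgeR adjusted p = 0.0154). Zfp677 is the other called KRAB member, also with 16 finger matches, and its neighbour on one side is the zinc finger gene Zfp54. It measured 12.9 and 13.0 CPM in the controls and 7.04, 7.40 and 8.89 CPM with IGF-1. The log2 change was -0.73 (SE 0.14) with an edgeR adjusted p of 0.0451, and replicate 5 lay nearest to the controls. With total counts in place of scaling factors the adjusted p was 0.0549.

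Zfp608 encodes a large protein with 1 finger match that is related to Zfp609, a partner of chromatin and transcription complexes. It measured 51.3 and 51.4 CPM in the controls and 33.6, 37.4 and 29.9 CPM with IGF-1. Replicate 5 was the lowest library, and no IGF-1 library reached a control. The log2 change was -0.61 (SE 0.10, edgeR adjusted p = 0.0203), and -0.53 without replicate 5.

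Zfp874b showed the largest fall, at the lowest level of the 7. It measured 10.9 and 10.8 CPM in the controls and 5.78, 6.40 and 6.74 CPM with IGF-1, a log2 change of -0.78 (SE 0.14, edgeR adjusted p = 0.033). Its protein is 93.1% identical to that of its neighbour Zfp874a, and 31.4% of its words occur in other genes, most in Gm48899, so reads of these copies could have been exchanged. Zfp874a measured 7.61 and 9.49 CPM in the controls and 6.11, 6.56 and 6.06 CPM with IGF-1. Its groups did not overlap either, but its log2 change of -0.45 was not called (adjusted p = 0.261, and 0.0827 without replicate 5).

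**Figure D1:**
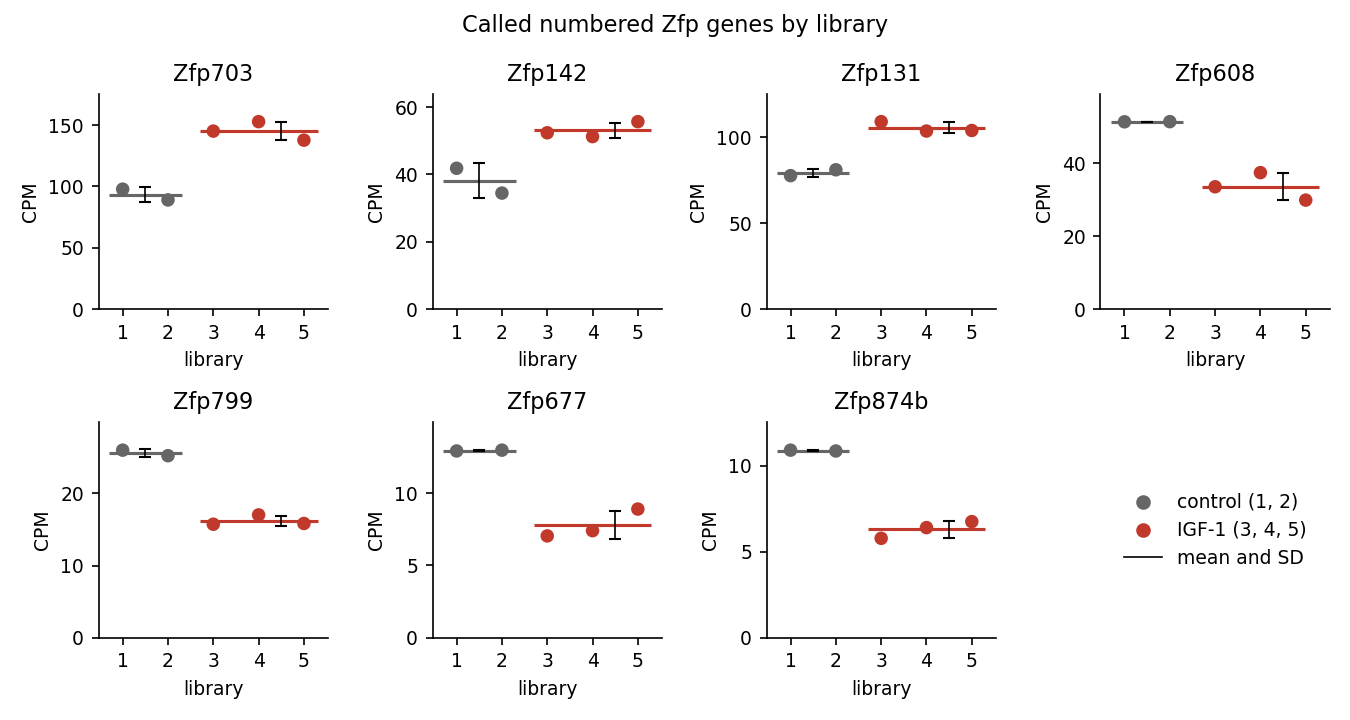
CPM of the 7 members called with all 5 libraries, by library, on axes from 0. Points are single libraries (grey, control replicates 1 and 2, red, IGF-1 replicates 3 to 5), lines are group means and bars are SD. No IGF-1 point reaches the control range, as for Zfp799 at 15.7 to 17.0 CPM against 25.2 and 26.0 CPM.

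The 7 calls rested on both control libraries. None was made when either control was left out, which left 1 control and the edgeR fit across all genes, and the largest adjusted p over 10 alternatives ran from 0.241 for Zfp703 to 0.694 for Zfp142. The direction of all 7 was kept in each of them. Leaving out a library could not reverse it, because every IGF-1 library lay beyond both controls in all 7. Leaving out IGF-1 replicate 3 left 1 member higher and 0 lower, and leaving out replicate 4 left 1 higher and 2 lower. Calls fell over all genes too, to 0.186% higher and 0.0576% lower without replicate 3, and to 0.224% and 0.115% without replicate 4. By DESeq2 with all libraries, 4 members rose and 4 fell, the same 7 and Zfp276, where 1.39% of 12912 genes rose and 0.581% fell.

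The members whose proteins carry a KRAB pattern lay mostly below 0. The pattern (E-W, any 2 residues, L, any 3, Q, any 2, L and then Y or H) was found in 98 of 234 members with a translated transcript (41.9%), against 252 of 16964 coding genes (1.49%). With all libraries 0 of the 98 rose and 2 fell, Zfp799 and Zfp677, and at an unadjusted p below 0.05 these counts were 0 and 24, where 7.1% of all genes lay higher and 5.57% lower. DESeq2 also gave 0 and 2. Of the 98, 74 had a log2 change below 0 and 24 above it, and their median was -0.13 (range -0.73 to 0.30) against -0.01 over all genes.

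Without IGF-1 replicate 5, 0 KRAB members rose and 19 (19.4%) fell, beside the 3.65% of all genes that fell, and the median was -0.13. DESeq2 without replicate 5 called only 4 of them lower (4.08%) and 0 higher. In 41 of the 98 (41.8%) every IGF-1 library lay below both controls, and in 7 (7.14%) every one lay above, with all 5 libraries. Over all genes tested these shares were 16.9% and 16.2%, and over the 237 members 63 (26.6%) and 33 (13.9%).

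Members without the pattern were spread to both sides. Of these 136, 3 rose (Zfp703, Zfp131 and Zfp142) and 2 fell (Zfp608 and Zfp874b), and the median log2 change was 0.02. Over all genes 0.685% rose and 0.339% fell. Without replicate 5, 13 of the 136 (9.56%) rose and 7 (5.15%) fell by edgeR, beside 5.49% and 3.65% of all genes. By DESeq2, 4 (2.94%) rose and 2 (1.47%) fell there, close to the 2.91% and 1.34% of all genes. All 13 members that rose by edgeR in that comparison lacked the pattern. Groups did not overlap in 26 (19.1%) that lay higher with IGF-1 and 22 (16.2%) that lay lower, near the 16.2% and 16.9% over all genes. The remaining 3 members, Zfp939, Zfp469 and Zfp660, matched no translated protein.

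**Figure D2:**
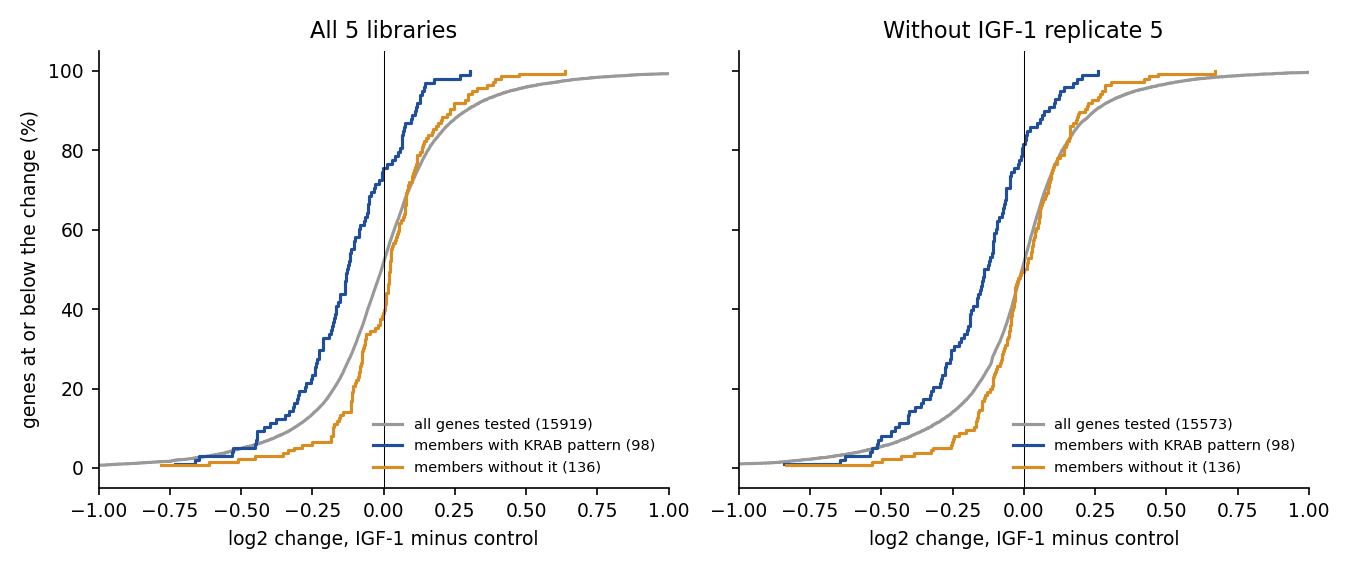
Cumulative share of genes (vertical axis, percent) at or below each log2 change (horizontal axis, IGF-1 minus control). The left panel uses all 5 libraries and the right one leaves out IGF-1 replicate 5. The curve of the 98 members with the KRAB pattern lies, over most of its length, left of the curves for all genes tested and for the 136 members without it, with medians of -0.13, -0.01 and 0.02 in the left panel.

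Among KRAB members, members without the pattern and all genes tested, the KRAB members had the lowest median in each IGF-1 library. On the log2(CPM + 0.5) scale, set against the mean of the controls, the median KRAB member lay at -0.10 in IGF-1 replicate 3, -0.16 in replicate 4 and -0.08 in replicate 5. The share of KRAB members below the control mean was 71.4%, 81.6% and 62.2% in the same libraries. In the controls it was 48.0% and 52.0%, but these mirror each other by construction, since their own mean is the reference. They therefore give no measure of spread for the IGF-1 libraries. Members without the pattern had medians of -0.00, 0.01 and 0.03 in the IGF-1 libraries, and all genes had medians of -0.00, -0.00 and -0.01. The 121 tested genes with the KRAB pattern that were not members had medians of -0.10, -0.17 and -0.07 there. Summed over the 98 KRAB members, the level was 2425 and 2455 CPM in the controls and 2259, 2202 and 2317 CPM with IGF-1. The 136 others summed to 7500 and 7442 CPM in the controls and 7627, 7637 and 7721 CPM with IGF-1. The total of all members ranged from 9972 to 10148 CPM.

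**Figure D3:**
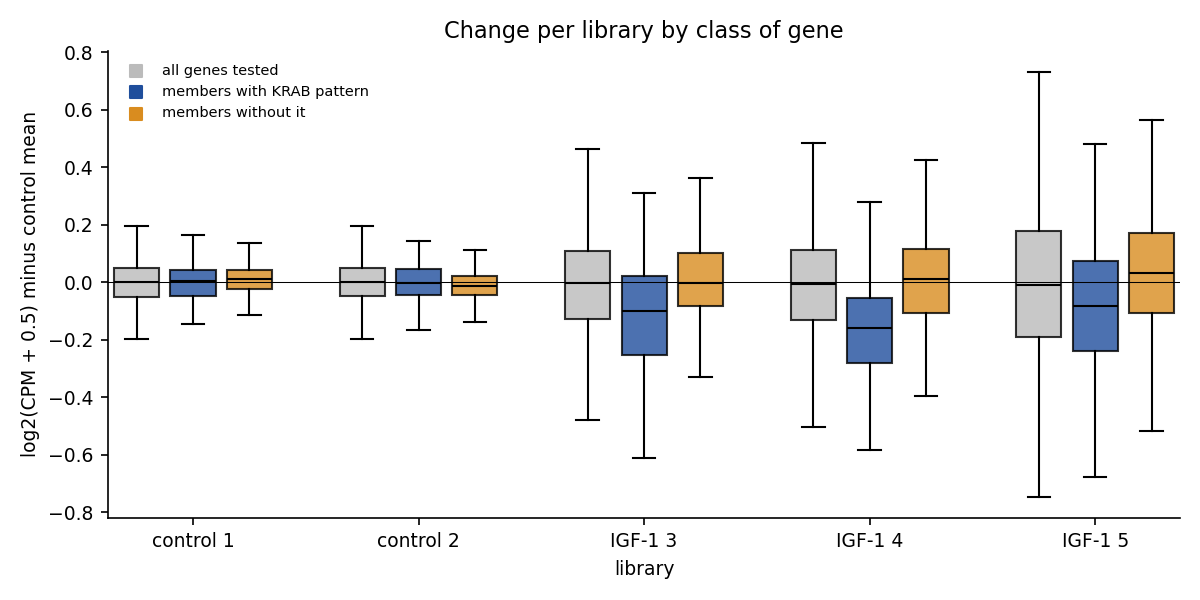
Log2(CPM + 0.5) of each gene minus the mean of the controls (vertical axis) in each library (horizontal axis), for all genes tested, members with the KRAB pattern and members without it. Boxes span the quartiles with the median as a line, and whiskers reach the farthest gene within 1.5 box lengths. The KRAB boxes sit lowest in all 3 IGF-1 libraries, with medians of -0.10, -0.16 and -0.08.

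KRAB members also differed from the others in level, length and base composition. Their median level was 16.6 CPM, or 4.76 CPM per kilobase of transcript, and that of the others 38.1 CPM, or 9.83 per kilobase. The median transcript was 3442 bases for KRAB members, 4021 for the others and 2799 over all genes tested. GC content was 40.9% at the median for KRAB members and 49.9% both for the others and over all genes. With a per-library offset for the trend on GC content, 0 KRAB members rose and 1 fell, with a median of -0.09, and without replicate 5 the counts were 0 and 15 with a median of -0.08. Of all genes, 0.559% rose and 0.318% fell with that offset, and 6.1% and 3.74% did without replicate 5. With an offset for transcript length the KRAB counts were 0 and 5, and 0 and 17 without replicate 5. Of all genes, 1.01% rose and 0.578% fell with the length offset, and 5.11% and 3.45% did without replicate 5. The part of expression level was not tested.

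Sharing of sequence between copies touched both classes. At least 10% of the 50-base words of 54 members occurred in another gene, and 25 of these were KRAB members and 28 were not. Among the 73 KRAB members under that limit, 0 rose and 2 fell, with a median of -0.12, and without replicate 5 the counts were 0 and 14 (19.2%). Among the 108 others, 1 rose and 1 fell, and without replicate 5, 8 rose (7.41%) and 6 fell (5.56%). Over all genes 0.685% rose and 0.339% fell, and 5.49% and 3.65% did without replicate 5. A neighbour named Zfp, Zscan or Zkscan was found for 71 of the 98 KRAB members and 46 of the 136 others.

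The strict pattern misses diverged KRAB boxes, such as those of the Zfp874 pair. A second pattern (L, any 3 residues, Q, any 2, L-Y, any 2, V, M or I, any residue and E), read in any transcript, marked 96 members, 88 of which carried the strict pattern. Beside 0.685% and 0.339% of all genes, 0 of these 96 rose and 2 (2.08%) fell with all libraries, Zfp677 and Zfp874b. Zfp799 lacked the second pattern, so these were not the same 2 as with the strict one. Without replicate 5, 0 of the 96 rose and 19 (19.8%) fell, with a median of -0.13, beside 5.49% and 3.65% of all genes. With the offset for GC content and without replicate 5, 1 of the 96 rose and 15 fell, beside 6.1% and 3.74%.

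The number of fingers, which sets how long a DNA stretch such a protein can read, had a median of 12 in KRAB members and 7.5 in the others. Without replicate 5, 0 of 2 KRAB members with up to 4 fingers fell, and 2 of 22 with 5 to 9. With 10 to 14 fingers 9 of 45 fell, and with 15 or more 8 of 29, beside 3.65% of all genes. The medians in these bins were -0.15, -0.15, -0.11 and -0.12. Of the members without the pattern, 4 of 38, 0 of 48, 3 of 33 and 0 of 17 fell in the same bins. The shares of called KRAB members differ between bins while their medians are close, and no trend on finger number was tested.

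Several KRAB members lay apart in every library yet missed the threshold when replicate 5 was kept. Zfp763, with 13 fingers and no shared word, measured 9.68 and 10.3 CPM in the controls and 6.44, 6.50 and 6.21 CPM with IGF-1. Its log2 change was -0.65 (adjusted p = 0.0613, and 0.00258 without replicate 5). Zfp113 measured 35.5 and 32.8 CPM in the controls and 23.5, 23.5 and 28.2 CPM with IGF-1. In Zfp113 and in the next member, replicate 5 lay nearest to the controls. Zfp229 measured 21.8 and 24.8 CPM in the controls and 16.0, 16.2 and 18.8 CPM with IGF-1. The log2 changes of Zfp113 and Zfp229 were -0.44 and -0.45 with all libraries (adjusted p = 0.0917 and 0.12) and -0.54 and -0.53 without replicate 5.

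The same held for 3 further members at low levels. Zfp994 measured 12.5 and 9.31 CPM in the controls and 8.09, 7.24 and 7.38 CPM with IGF-1, and 18.2% of its words are shared. Zfp975 measured 9.28 and 8.72 CPM against 5.72, 7.30 and 7.14 CPM, and 41.8% of its words are shared, most with Zfp976. Zfp446, known as a SCAN-domain zinc finger gene and without the KRAB pattern, measured 12.6 and 11.1 CPM against 7.92, 8.88 and 8.11 CPM. Their adjusted p-values were 0.189, 0.299 and 0.125 with all libraries and 0.0148, 0.048 and 0.0114 without replicate 5.

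On the rising side the members called by edgeR only without replicate 5 carried no KRAB pattern. Zfp276 measured 71.6 and 74.1 CPM in the controls and 90.3, 87.4 and 96.5 CPM with IGF-1, a log2 change of 0.33 (adjusted p = 0.0643, and 1.25e-04 without replicate 5). It overlaps the DNA repair gene Fanca, which holds most of the 20.8% of its words found elsewhere, so reads of this pair cannot be separated here. Zfp623 measured 34.6 and 32.9 CPM in the controls and 42.4, 40.0 and 43.2 CPM with IGF-1 (log2 change 0.31, adjusted p = 0.127, and 0.0102 without replicate 5). Zfp653 measured 6.92 and 6.72 CPM in the controls and 9.08, 9.83 and 7.92 CPM with IGF-1 (log2 change 0.39, adjusted p = 0.327, and 0.0353 without replicate 5). Zfp800 measured 22.5 and 22.7 CPM in the controls and 27.2, 27.5 and 33.7 CPM with IGF-1. For Zfp800 replicate 5 lay farthest from the controls, and its log2 change was 0.38 (adjusted p = 0.186), or 0.27 once that library was left out (0.0461).

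**Figure D4:**
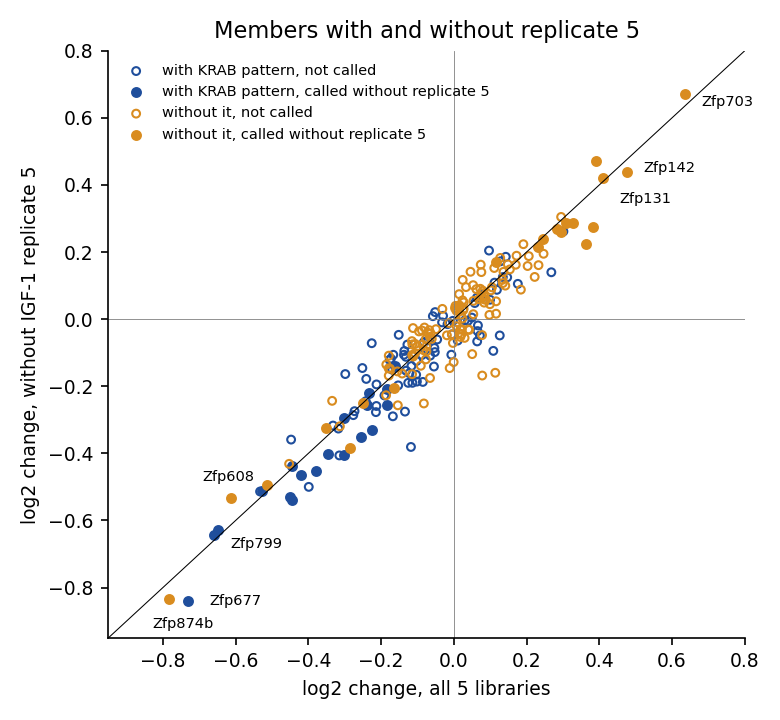
Log2 change of each member (IGF-1 minus control) with all 5 libraries (horizontal axis) and without IGF-1 replicate 5 (vertical axis), with the line of equality. Blue points carry the KRAB pattern and orange points do not, and filled points were called without replicate 5. The 13 filled points above 0 are all orange, and 19 of the 26 filled points below 0 are blue. Both axes use the same controls and IGF-1 replicates 3 and 4.

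The members with roles in translation, 2 in number, were called higher only when replicate 5 was left out. Zfp622, a maturation factor of the large ribosomal subunit, measured 62.0 and 69.0 CPM in the controls and 75.5, 79.1 and 78.2 CPM with IGF-1. Its log2 change was 0.25 (adjusted p = 0.18, and 0.00397 without replicate 5). Zfp598, the ubiquitin ligase that marks collided ribosomes, measured 94.6 and 95.7 CPM against 111, 103 and 94.9 CPM. Its groups overlapped through replicate 5, with an adjusted p of 0.571, and 0.0227 without that library. DESeq2 without replicate 5 called neither of them. Over all genes, edgeR called 5.49% higher in that comparison, and DESeq2 2.91%.

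Of 11 members known as parts or partners of chromatin complexes, 0 rose and 1 fell, Zfp608, and the median was 0.08. Over all genes 0.685% rose and 0.339% fell, so a list this short can be read little from its count of calls. Zfp592, a partner of Zfp687 in a chromatin reader complex, measured 42.3 and 39.8 CPM in the controls and 48.7, 49.7 and 52.8 CPM with IGF-1 (log2 change 0.30, adjusted p = 0.13, and 0.0116 without replicate 5). Zfp687 itself measured 69.1 and 66.7 CPM against 76.5, 73.3 and 65.0 CPM, with overlapping groups. Zfp462, which is known to act with H3K9 methyltransferases, measured 144 and 136 CPM against 132, 140 and 147 CPM. Zfp609, the relative of Zfp608, measured 106 and 98.5 CPM against 108, 105 and 110 CPM, so the related genes lay on opposite sides of 0.

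Of 12 activators and factors of stem or neural cells, 1 rose, Zfp703, and 0 fell, with a median of 0.05. Over all genes 0.685% rose and 0.339% fell, and 5.49% and 3.65% did without replicate 5. Zfp503, the other NET family member and a regulator of striatal development, measured 31.3 and 29.2 CPM in the controls and 24.5, 21.9 and 28.1 CPM with IGF-1. Its log2 change was -0.28 (adjusted p = 0.333, and 0.00199 without replicate 5). Zfp335, needed for neural progenitor division, measured 27.7 and 29.2 CPM against 31.9, 36.6 and 35.4 CPM (adjusted p = 0.227, and 0.0329 without replicate 5). It shares 20.3% of its words with other genes, most with Pcif1. Zfp292 measured 75.2 and 74.5 CPM against 65.8, 60.2 and 62.8 CPM, a log2 change of -0.25 (adjusted p = 0.15, and 0.00262 without replicate 5). Among the other 8 members of this list, the log2 change lay between 0.00 in Zfp219 and 0.13 in Zfp143, and none was called with or without replicate 5. Zfp423 and Zfp536 of this list had summed counts of 475 and 128 and were no members.

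The RNA-binding members, 7 in all, gave 0 calls with or without replicate 5, and 0 calls by DESeq2. At an unadjusted p below 0.05, edgeR gave 1 higher and 0 lower with all libraries, beside 7.1% and 5.57% of all genes. After adjustment 0.685% of all genes rose and 0.339% fell, and 5.49% and 3.65% did without replicate 5. A list of 7 is therefore too short for its 0 calls to stand out. These RNA-binding genes include the most abundant members. Zfp207, which helps chromosomes attach to the spindle, measured 335 and 339 CPM in the controls and 333, 322 and 307 CPM with IGF-1. Zfp106, an RNA-binding protein that motor neurons need, measured 258 and 261 CPM against 263, 274 and 256 CPM. Zfp638, which recruits silencing factors to unintegrated retroviral DNA, measured 215 and 235 CPM against 216, 201 and 208 CPM. The rest of the 6 most abundant members, Zfp706, Zfp664 and Zfp740, had log2 changes of 0.06, 0.08 and -0.11. Per kilobase of transcript, Zfp207 was highest of the 6 at 209 CPM and Zfp638 lowest at 23.8 CPM.

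Members known to guard imprinted loci or silence retroelements were not called with or without replicate 5. Over all genes, edgeR called 0.685% higher and 0.339% lower, and 5.49% and 3.65% without replicate 5. The absence of calls in so short a list therefore says little. Zfp445, which maintains imprints, measured 155 and 160 CPM in the controls and 160, 159 and 172 CPM with IGF-1 (log2 change 0.05). Zfp568, which represses a placental transcript of Igf2, measured 27.9 and 24.6 CPM against 28.2, 31.6 and 31.0 CPM (log2 change 0.21, adjusted p = 0.421). Zfp809, which silences retroviruses in embryonic cells, measured 10.8 and 11.8 CPM against 10.8, 9.73 and 8.11 CPM (log2 change -0.25, adjusted p = 0.523). Zfp932 and Zfp961 had log2 changes of -0.02 and 0.14. Zfp708 and Zfp819 had summed counts of 1 and 50 and were no members.

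Pairs of close copies did not always move together. Among 10 pairs of members with at least 80% protein identity, Zfp955a and Zfp955b were closest at 95.4%, and both lay lower in every IGF-1 library, with log2 changes of -0.24 and -0.23. Zfp975 and Zfp976, at 87.6%, had log2 changes of -0.42 and 0.07, and Zfp970 and Zfp971, at 82.6%, of -0.14 and 0.18. Zfp738 measured 24.1 and 23.9 CPM in the controls and 17.5, 18.8 and 20.3 CPM with IGF-1 (log2 change -0.35, adjusted p = 0.181, and 0.00339 without replicate 5). Its relatives Zfp729a (86.4%) and Zfp729b (83.2%) had log2 changes of -0.05 and -0.15. The log2 changes were -0.17 and -0.24 in Zfp808 and Zfp934 (92.4%), -0.13 and -0.00 in Zfp780b and Zfp974 (86.4%), and -0.05 and -0.21 in Zfp110 and Zfp369 (85.0%). Differences within pairs were not tested, and counts of these pairs are uncertain because reads could have been shared.

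The TRIM28 machinery through which KRAB proteins act was not called with all libraries. Of 28 tested genes of the co-repressor and heterochromatin list, 0 rose and 0 fell by edgeR or DESeq2, and the median was 0.06. Over all genes, 0.685% rose and 0.339% fell by edgeR, and 1.39% and 0.581% by DESeq2. At an unadjusted p below 0.05 the edgeR counts were 4 and 2 of 28, beside 7.1% and 5.57% of all genes. Trim28, the scaffold, measured 400 and 365 CPM in the controls and 399, 420 and 406 CPM with IGF-1 (log2 change 0.09, adjusted p = 0.601). Setdb1, the histone methyltransferase, measured 125 and 121 CPM against 141, 131 and 137 CPM (log2 change 0.15, adjusted p = 0.374). Cbx5, which encodes an HP1 protein, and Dnmt1, the maintenance DNA methyltransferase, had log2 changes of -0.07 and 0.09. Without replicate 5, 4 of the list rose, Chd4, Dnmt1, Morc2a and Setdb1, by 0.13 to 0.19 on the log2 scale. Setdb1 lay near the threshold there (edgeR adjusted p = 0.0497). In that comparison 1 gene of the list fell, Resf1, a retroelement silencing factor, with a log2 change of -0.31. Over all genes 5.49% rose and 3.65% fell without replicate 5. Chd4, Dnmt1, Morc2a and Resf1 were named after their values were seen.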

How the data were processed

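Polyadenylated RNA of 5 libraries was sequenced. The authors deposited unnormalized counts, 1 table per library with 1 row per gene symbol. The submitters' processing notes name GRCm39 as the build and DESeq2 1.28.1, featureCounts 2.0.1, STAR 2.7.9a and cutadapt 3.4 as tools. Their settings, the annotation and the use of strand or multiply mapped reads are not given in the sources used here, so paralogs and overlapping genes may share reads. The 237 members, the lists and the patterns were chosen with earlier results of these data known.

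Counts were fitted in R 4.3.3 with edgeR 4.0.16 after filterByExpr (minimum count 10, minimum total 15) and TMM scaling. IGF-1 (3 libraries) was set against control (2) with the two-sided quasi-likelihood F-test, with Benjamini-Hochberg adjustment over all genes and a threshold of 0.05. The SE is the log2 change divided by the square root of F. CPM use the TMM factors, and single-library log2 values add 0.5 CPM. Named members were those called, the 6 largest rises and 6 largest falls called only without replicate 5 with groups apart, the 6 most abundant, the role lists, close pairs and the neighbours of the count limit.

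KRAB patterns, fingers, protein identity, GC content, length and 50-base words came from GENCODE M21 transcripts (GRCm38), matched by symbol for 236 of 237 members. Proteins were translated from these transcripts in place of RefSeq proteins. RefSeq start-site windows matched 198 members. Alternatives were RLE factors, total counts, no filter, DESeq2 1.42.0, limma-voom (limma 3.58.1), each library left out, summed counts of 250 and 1000, and, added after seeing the data, DESeq2 without replicate 5, offsets for length or GC content (lowess span 0.3), members under 10% shared words and a broader KRAB pattern. The fit was tested on simulated counts with a smaller spread than the data and no outlying library. There 79% of 1.5-fold and 88% of 2-fold changes were recovered, with 5 false calls. This setting was easier than the data, so it does not show how the fit performs on them.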

Additional observations from a re-analysis of the deposited data

How the results depend on the processing

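The members' calls depended most on which libraries entered. With each library left out in turn, members higher ranged from 0 to 13 and lower from 0 to 26, KRAB members lower from 0 to 19, and the members' median log2 change from -0.049 to -0.013. Over all genes the ranges were 0 to 855 higher and 2 to 569 lower, and over the TRIM28 list 0 to 4 higher and 0 to 1 lower. The highest counts and the lowest median came without IGF-1 replicate 5, and the highest median without replicate 4. No member was called without control 1 or control 2, fits that take the spread of the single control from the IGF-1 group, and 0 members were lower without IGF-1 replicate 3. Leaving out a control kept 0 genes higher and 2 lower over all genes. Without a filter, 6 members were higher and 8 lower, 6 KRAB members were lower, and over all genes 385 were higher and 221 lower. KRAB members lower fell to 1 with total counts, limma-voom or the GC offset. DESeq2 called 180 genes higher, and without replicate 5 it called 316 higher and 146 lower, 3 and 1 of the TRIM28 list, and 4 KRAB members lower. The length offset gave 7 members, 5 KRAB members and 91 genes lower. Without replicate 5 it gave 11 and 25 members, 788 and 531 genes, 3 and 1 of the TRIM28 list, 17 KRAB members lower and a median of -0.057. The GC offset without replicate 5 gave 14 and 21 members, 940 and 577 genes, 4 and 1 of the TRIM28 list and 15 KRAB members lower. Members under 10% shared words gave 1 higher, and a summed count of 1000 gave 2 lower. The cause of these differences was not tested, apart from the smaller number of members in the last pair. No value changed sign among the called members, whose groups did not overlap, so leaving out a library could not reverse a sign. No paired analysis was possible because the control and IGF-1 libraries share no replicate number.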

Other observations

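Other zinc finger families of the same libraries can be set beside the numbered Zfp genes. Over all genes, edgeR called 0.685% higher and 0.339% lower with all libraries, and 5.49% and 3.65% without IGF-1 replicate 5. DESeq2 without replicate 5 called 2.91% higher and 1.34% lower. At an unadjusted p below 0.05, edgeR gave 7.1% and 5.57% with all libraries. Of 37 Zfp genes with 1 or 2 digits and at least 500 summed counts, 0 rose and 0 fell with all libraries (edgeR, at an unadjusted p below 0.05 1 and 8, median -0.06), and 1 rose and 7 fell without IGF-1 replicate 5 (median -0.13, by DESeq2 0 and 2). Of 17 Zscan and Zkscan genes, 0 rose and 0 fell (unadjusted 0 and 4, median -0.07). Without replicate 5, 0 of these rose and 4 fell (23.5%, by DESeq2 0 and 2). Zbtb proteins carry a BTB domain in place of a KRAB box. Of 34 Zbtb genes, 1 rose and 0 fell (unadjusted 8 and 1, median 0.12). Without replicate 5, 7 of these rose (20.6%) and 1 fell (2.94%, by DESeq2 2 and 0). With all libraries, 3 Zbtb genes rose by DESeq2, 3 with the length offset and 5 without a filter, where 1.39%, 1.01% and 1.31% of all genes rose. With the GC offset, total counts or limma-voom the Zbtb call was lost, which left 0 and 0. Beyond the members, 121 tested genes carried the strict KRAB pattern. Of these, 0 rose and 1 fell, 2610008E11Rik with a log2 change of -0.70 (edgeR adjusted p = 0.0442), 88 lay below 0 and 33 above, and the median was -0.13. The 1 call was lost with the GC offset. Without replicate 5, 1 rose (Pogk, 0.840%) and 10 fell (8.40%) of 119 tested, and DESeq2 called 0 and 3. Their summed level was 1153 and 1180 CPM in the controls and 1066, 1070 and 1161 CPM with IGF-1, so replicate 5 lay within the control range. These families were not tested against the numbered Zfp genes.

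Some KRAB zinc finger proteins are known to guard imprinted genes. These gave 0 calls with all libraries among 18 tested (edgeR, unadjusted 3 higher and 0 lower, DESeq2 0 and 0), with a median of -0.07. Over all genes, edgeR called 0.685% higher and 0.339% lower, DESeq2 called 1.39% and 0.581%, and the unadjusted edgeR shares were 7.1% and 5.57%. Without replicate 5, 2 rose, Peg10 and Gnas, and 2 fell, Nap1l5 and Nnat, by edgeR, while DESeq2 called 0 higher and 0 lower. In these fits 5.49% of all genes rose and 3.65% fell by edgeR, and 2.91% and 1.34% by DESeq2. Gnas measured 35.0 and 32.5 CPM in the controls and 34.8, 46.8 and 93.8 CPM with IGF-1, so replicate 5 was the highest library. Nnat measured 237 and 236 CPM in the controls and 218, 210 and 310 CPM with IGF-1, where replicate 5 lay on the other side of the controls from replicates 3 and 4. These 4 genes and Pogk were named after their values were seen.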
